A study of Drosophila melanogaster with 3 samples.

Results

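Ir21a, Ir25a, Ir93a, Gr28b and pain, all genes with known roles in temperature sensing in flies, were taken by symbol from count tables of single cells of larval Drosophila melanogaster chemosensory organs. They are 5 of 10457 gene symbols listed over 3 libraries. Replicate 1 listed 1 of them, and replicates 2 and 3 listed 4 each. The labels number the 3 libraries as replicates of 1 tissue and stage, and no treatment is compared. Their titles end in differing words that are not explained, so whether the libraries were prepared alike is not known, which bears on every mean over libraries. Per the labels, hand-picked, fluorescent sense organs of larvae in the last larval stage were dissociated and run through DisCo, a droplet method that pairs single cells with barcoded beads. The genotype, the driver of the label, the number of larvae pooled and the names of the organs are not given in the sources used here, and nothing states that the replicates came from separate batches of larvae. The spread between replicates may therefore be partly technical.

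In flies, Ir21a, Ir25a and Ir93a encode subunits of an ionotropic receptor complex that answers to cooling. In larvae, it works in the cool cells of the dorsal organ, a sense organ of the head. Ir21a is the subunit most closely tied to cool sensing, while Ir25a and Ir93a are co-receptors that also serve other ionotropic receptors. Gr28b belongs to the gustatory receptor family, and its isoforms have been tied to warmth sensing in adult flies and to light avoidance in larvae. The gene pain (painless) encodes a TRPA channel needed for the response of larvae to noxious heat and harsh touch.

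Counting limits what can be said of some of these genes. Ir21a (FBgn0031209), Ir25a (FBgn0031634) and Gr28b (FBgn0045495) lie on arm 2L, Ir93a (FBgn0259215) on 3R and pain (FBgn0060296) on 2R. All 5 transcripts of Gr28b share 1 last exon in the Ensembl annotation, so a count near the 3′ end cannot be given to the warmth or the light isoform. The last exon of pain overlaps NaCP60E, a gene of the sodium channel family on the opposite strand, by 173 bases. Whether the counting used strand is not stated, so reads of that stretch cannot be told apart if it did not. NaCP60E had 1, 1 and 71 counts in replicates 1, 2 and 3, where pain had 1, 64 and 0 in barcodes with at least 200 genes. The last exon of Ir21a overlaps the antisense RNA gene asRNA:CR43609 by 736 bases, and that gene was not listed in any of the 3 tables.

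The libraries differed in what they held. Barcodes with at least 200 genes were kept, 61, 214 and 231 in replicates 1, 2 and 3, or 506 of 1369. They carried 497492, 654062 and 345621 counts, with medians per barcode of 3337, 521.5 and 513. The neuron list (12 genes, such as nrv3, nSyb, brp and elav) stood at 143, 6522 and 13347 CPM (counts scaled to 1000000 per library), and the glia list (9 genes such as repo, nrv2 and Gs2) at 762, 3741 and 477 CPM. In replicates 2 and 3, nrv3 alone gave 3104 and 6588 CPM of the neuron list. Members of that list differed in direction, since nSyb stood at 165 and 1626 CPM but brp at 119 and 26.0 and elav at 44.3 and 11.6. The glia list was uneven too. In replicate 1, repo was not listed, and Gs2, nrv2, Gli and wrapper gave 255, 211, 167 and 125 CPM. In replicate 2, nrv2 and Gs2 gave 2166 and 1186 CPM, but repo 21.4 and Gli 1.53. Epidermis genes stood at 973 CPM in replicate 1 and at 7.64 and 20.3 CPM in the others, whereas sensillum support, muscle, hemocyte, trachea, fat body and salivary gland lists did not exceed 102 CPM in any library. Single barcodes weighed heavily, since the deepest one held 23.0%, 24.1% and 34.3% of the kept counts. The 3 deepest barcodes together with all kept barcodes whose sequence lay within 4 edits of one of them numbered 33, 11 and 28 and held 90.6%, 48.2% and 64.5% of the counts. They are called the deepest set, and results that rest on it are given with and without it. Replicates shared at most 1 barcode pairwise. No doublet caller was run.

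A count of at least 1 of the 5 genes was found in 83 of the 506 kept barcodes, 1 in replicate 1, 33 in replicate 2 and 49 in replicate 3. Together they carried 229 counts. Levels are given as CPM over all kept barcodes of a library, with exact 95% Poisson intervals that cover counting error only. In these sums, fewer cells of a type and less RNA per cell cannot be told apart.

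Among the subunits of the cooling receptor, Ir21a had 0, 14 and 22 counts in replicates 1, 2 and 3. This put it at 0, 21.4 (interval 11.7 to 35.9) and 63.7 CPM (interval 39.9 to 96.4). Replicate 3 was thus highest, and its interval did not overlap that of replicate 2. Over the libraries the mean was 28.4 ± 32.4 CPM (SD, n = 3).

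The co-receptor gene Ir25a had the most even levels of the 5 in replicates 2 and 3, at 64.2 CPM (42 counts, interval 46.3 to 86.8) and 98.4 CPM (34 counts, interval 68.1 to 137). Those intervals overlapped, so the pair of libraries could not be ordered. It was not listed in replicate 1, and the mean was 54.2 ± 49.9 CPM (SD, n = 3). Ir93a was listed in replicate 3 only, with 25 counts at 72.3 CPM (interval 46.8 to 107). Of the complex, then, replicate 2 held Ir21a and Ir25a without Ir93a, and replicate 3 held all members.

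Gr28b had 0, 2 and 25 counts in replicates 1, 2 and 3. Replicate 3 stood at 72.3 CPM (interval 46.8 to 107) against 3.06 CPM in replicate 2 (interval 0.370 to 11.0), with no overlap. The channel gene pain ran the other way, with 1 count in replicate 1, 64 in replicate 2 (97.9 CPM, interval 75.4 to 125) and none in replicate 3. With 3 counts as the limit where nothing was counted, a 0 in replicate 3 allows up to 8.68 CPM. The corresponding limit is 6.03 CPM in replicate 1 and 4.59 CPM in replicate 2. The exact intervals of a 0 end higher, at 7.41, 5.64 and 10.7 CPM in replicates 1, 2 and 3. The means over libraries were 24.1 ± 41.8 CPM for Ir93a, 25.1 ± 40.9 for Gr28b and 33.3 ± 55.9 for pain (SD, n = 3 each), each SD larger than its mean.

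**Figure D1:**
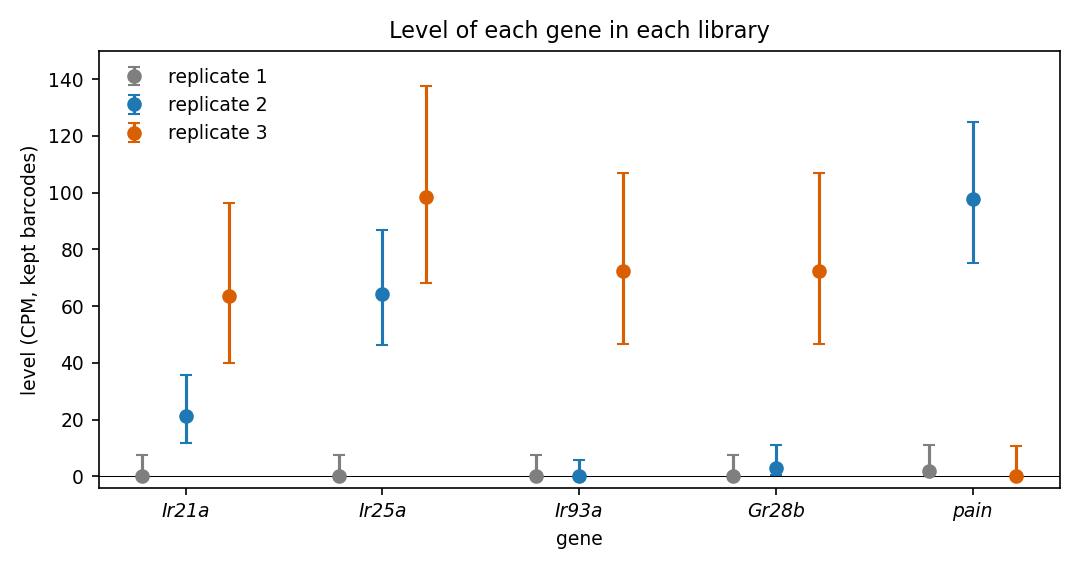
Level of each gene in CPM over the kept barcodes of each library; points are the 3 replicates and bars are exact 95% Poisson intervals. Ir93a and Gr28b were high in replicate 3 alone and pain in replicate 2 alone, while Ir21a and Ir25a were counted in both.

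The order of libraries was therefore not shared by the 5 genes. Replicate 1, where glia and epidermis genes outweighed neuron genes, held 1 member count in its kept barcodes, which came from pain. The part of the cell makeup of the libraries in these differences was not tested.

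Counts were spread thinly. Ir21a was found in 10 of 214 kept barcodes of replicate 2 (4.67%, exact 95% binomial interval 2.26 to 8.43) and in 12 of 231 of replicate 3 (5.19%, interval 2.71 to 8.90). Ir25a was found in 18 (8.41%) and 20 (8.66%) of them. Ir93a was found in 10 barcodes of replicate 3 (4.33%), Gr28b in 18 of replicate 3 (7.79%, interval 4.68 to 12) and pain in 13 of replicate 2 (6.07%, interval 3.27 to 10.2). Most of these barcodes held a single count of the gene. That was so for 17 of 18 barcodes with Gr28b and 8 of 10 with Ir93a in replicate 3, for 12 of 18 with Ir25a in replicate 2 and 16 of 20 in replicate 3. For pain it was 7 of 13. Where a library had no count, the limit of 3 was 4.92%, 1.40% and 1.30% of barcodes in replicates 1, 2 and 3. The exact intervals end at 5.87%, 1.71% and 1.58%. Either limits barcodes with a count and not cells that express the gene.

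Barcodes with a member were deeper than the rest, least so for Ir25a in replicate 3. In replicate 2 the median was 6818 counts with Ir21a, 8056 with Ir25a and 6787 with pain, against under 500 without them. In replicate 3 it was 1106.5 against 503 for Ir21a, 1075 against 504 for Ir93a and 581 against 513 for Ir25a, and 846.5 with Gr28b.

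Split by depth, the share of barcodes with a gene was highest in the class of at least 1000 genes for each gene listed in replicates 2 and 3. That class held 29 barcodes in replicate 2 (median 6787 counts) and 10 in replicate 3 (median 7081 counts). The class of 200 to under 500 genes held 160 (median 431) and 194 (median 461.5). Ir25a in replicate 2 was counted in 5 barcodes of 200 to under 500 genes (3.13%), 1 of 500 to under 1000 genes (4%) and 12 of at least 1000 genes (41.4%). For pain in the same library the numbers were 3 (1.88%), 0 and 10 (34.5%), and for Ir21a 3, 1 and 6. In replicate 3, Ir25a was counted in 15 (7.73%), 3 (11.1%) and 2 (20.0%), Gr28b in 9 (4.64%), 6 (22.2%) and 3 (30.0%), Ir93a in 4, 3 and 3, and Ir21a in 5, 3 and 4.

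At equal total counts the classes were closer and their order differed between genes. The share was computed for each barcode thinned to 395 counts, which left out 125 shallower barcodes. In replicate 2, Ir25a then stood at 3.16% of barcodes with 200 to under 500 genes and 2.68% of those with at least 1000, and Ir21a at 2.06% and 0.783%. In replicate 3, Ir25a stood at 5.32% and 0.691% and Gr28b at 3.18% and 1.28%. Thinned shares were higher in deep barcodes for pain in replicate 2, at 1.42% and 2.88%, and for Ir93a in replicate 3, at 1.61% and 3.12%. In the latter library Ir21a stood at 1.46% and 1.61%, and in replicate 2 Gr28b stood at 0 and 0.119%. The deep share was thus lower than the shallow one in 4 of 8 cases and higher in 4. In the class of 500 to under 1000 genes of replicate 3, thinned shares were 3.34% for Ir21a, 3.98% for Ir93a and 5.86% for Gr28b, each above both other classes, and 2.06% for Ir25a. At these sizes a thinned share in the deep class is worth less than 1 barcode.

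**Figure D2:**
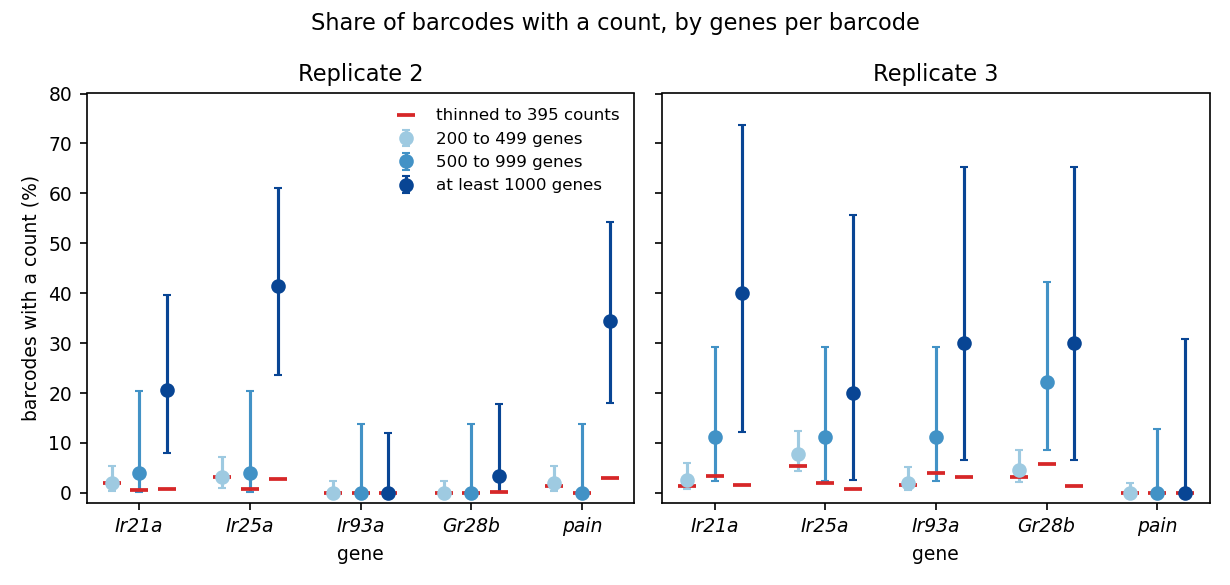
Share of kept barcodes with at least 1 count of each gene in replicates 2 and 3, for barcodes with 200 to under 500, 500 to under 1000 and at least 1000 genes; bars are exact 95% binomial intervals and red dashes give the share after thinning to 395 counts. The unthinned shares of the listed genes are highest in the class of at least 1000 genes, up to 41.4% for Ir25a in replicate 2. The thinned shares stay under 6% in every class.

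Relative to all counts, the clearest contrast between depth classes was that of Ir25a in replicate 3. It stood at 190 CPM in barcodes with 200 to under 500 genes and at 61.5 CPM in those with at least 1000, a ratio of 0.324 (interval 0.144 to 0.703). Without the deepest barcode the ratio was 0.138 (interval 0.0155 to 0.571). In replicate 2 the same contrast was 79.8 against 64.9 CPM, a ratio of 0.814 whose interval (0.339 to 2.37) included 1. In these sums, shallow barcodes of replicate 3 carried proportionally more Ir25a, and this was not seen beyond counting error in replicate 2. The 12 deep counts of replicate 3 lay in 2 barcodes, 10 of them in the deepest, and 1 shallow barcode held 4 of 19. The counting intervals do not cover such clumping.

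For Ir93a in replicate 3, the deep class stood at 87.1 CPM and the shallow one at 49.9 CPM, a ratio of 1.75 (interval 0.618 to 6.05). Leaving out the deepest barcode, which held 1 count of Ir93a, raised it to 4.18 (interval 1.46 to 14.6). Of the 16 deep counts then left, 15 lay in the barcode of rank 2. The raised ratio thus rested on 1 barcode, which its counting interval does not cover. For pain in replicate 2, the ratio of 2.84 (113 against 39.9 CPM, interval 0.926 to 14.1) fell to 1.05 (interval 0.301 to 5.63) without the deepest barcode. The ratios of Ir21a in both libraries, and of Gr28b in replicate 3 at 0.570 (interval 0.208 to 1.59), had intervals that included 1.

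Over the 3 libraries as replicates, counts summed by class were tested with edgeR's quasi-likelihood test and Benjamini-Hochberg adjustment, blocking on the library. Of 1508 genes that passed the count filter, 0 were higher (0%) and 3 lower (0.199%) in deep barcodes at an adjusted p under 0.05. At an unadjusted p under 0.05, 22 were higher (1.46%) and 27 lower (1.79%), and DESeq2 called 0 higher and 7 lower. The 3 lower genes, named after their values were seen, were the ribosomal RNA pseudogene 28SrRNA-Psi:CR40596 (log2 fold change -6.63), CG6005 (-2.38) and fz2 (-5.10). The number lower was 24 without replicate 1, 1 without replicate 2 and 0 without replicate 3, and 2 were higher without replicate 1. None of the 5 members passed the filter on low counts in this fit, so no member was tested. Fitted without the filter, over 10020 genes with a median log2 fold change of 0.97, the log2 fold change of Ir21a was -0.47 ± 1.38 (SE), that of Ir25a -0.66 ± 1.23, of Ir93a 0.83 ± 1.98, of Gr28b -0.22 ± 1.88 and of pain 1.98 ± 1.83, all with an edgeR adjusted p between 0.949 and 0.977. With errors this large a contrast within a library, such as that of Ir25a, was not detectable across libraries.

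A few barcodes held much of each gene. In replicate 2 the deepest barcode, with 24.1% of the kept counts, held 45 of 64 counts of pain (70.3%, interval 57.6 to 81.1) and 4 of 14 of Ir21a. Ir25a was divided evenly there between the deepest barcode and the one of depth rank 6, with 10 of 42 counts each (23.8%, interval 12.1 to 39.5), although the latter held only 4.29% of the library. The rank 6 barcode thus held more Ir25a than its share of the library, while the deepest held Ir25a in proportion.

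In replicate 3 the deepest barcode held 34.3% of the kept counts, and close to that share of 3 members, with 7 of 22 counts of Ir21a (31.8%), 10 of 34 of Ir25a (29.4%) and 8 of 25 of Gr28b (32.0%). Ir93a departed from this, with 1 of 25 counts (4%). Its counts lay in the barcode of rank 2, with 6.24% of the library and 15 of 25 counts of Ir93a (60.0%, interval 38.7 to 78.9). Among shallow barcodes, rank 101 held 4 counts of Ir21a in 573 counts, and rank 186 held 4 counts of Ir25a in 366 counts.

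The deepest set as a whole held 54 of 64 counts of pain in replicate 2 (84.4%, against 48.2% of all counts) and 19 of 25 of Ir93a in replicate 3 (76.0%, against 64.5%). It held less of Ir25a than of all counts in both libraries, 14 of 42 (33.3%) and 14 of 34 (41.2%). For Gr28b in replicate 3 it held 13 of 25 (52.0%), and for Ir21a 8 of 14 in replicate 2 (57.1%) and 13 of 22 in replicate 3 (59.1%).

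The genes met in few barcodes. Counts of at least 2 members occurred in 16 of the 506 kept barcodes, 8 in replicate 2 and 8 in replicate 3, and each of the 16 had at least 500 genes. In replicate 2 they made up 8 of 29 barcodes with at least 1000 genes (27.6%). In replicate 3 they made up 4 of 10 of these (40.0%) and 4 of 27 with 500 to under 1000 genes (14.8%). None of the 160 and 194 barcodes with 200 to under 500 genes in those libraries had counts of more than 1 member. Of the 16, 10 belonged to the deepest set and 6 did not.

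The pair met most often was Ir21a, of the cooling receptor, and Gr28b, of the gustatory family, in 6 barcodes of replicate 3. That was 50.0% of the 12 barcodes with Ir21a and 33.3% of the 18 with Gr28b, whereas Gr28b was counted in 12 of 219 barcodes without Ir21a (5.48%). Among barcodes with at least 500 genes, Gr28b was counted in 6 of 7 with Ir21a (85.7%) and 3 of 30 without (10%). The deepest barcode held 7 counts of Ir21a and 8 of Gr28b, and the others, of ranks 4, 5, 19, 28 and 39, held 1 count of each. Apart from rank 39, all of them lay in the deepest set. Outside it, 1 barcode held both genes, where Ir21a was counted in 6 and Gr28b in 12. How far shared barcode sequence or depth sets this overlap was not tested.

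The cooling receptor's subunits Ir21a and Ir25a were counted together in 1 barcode of replicate 2 and 2 of replicate 3. In replicate 2 that barcode was the deepest, of 10 with Ir21a and 18 with Ir25a. Among barcodes with at least 1000 genes there, Ir25a was counted in 1 of 6 with Ir21a and in 11 of 23 without (47.8%). In replicate 3 the order was the reverse, with Ir25a in 2 of 4 such barcodes with Ir21a and 0 of 6 without, and over all kept barcodes in 16.7% of those with Ir21a and 8.22% of those without. All of Ir21a, Ir25a and Ir93a were counted in 2 barcodes, both of replicate 3. The deepest held 7, 10 and 1 counts of them in that order, and rank 2 held 2, 2 and 15. Outside these, Ir93a was counted in 8 barcodes, each without the other subunits.

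The gene pain met Ir21a in 4 barcodes of replicate 2 (40.0% of those with Ir21a and 30.8% of those with pain), of ranks 1, 3, 9 and 15, all in the deepest set. It met Ir25a in 4 barcodes, of ranks 1, 4, 6 and 8, of which only the deepest was in that set. Gr28b met Ir25a in 1 barcode of replicate 2 and 2 of replicate 3, and Ir93a in 1 of replicate 3.

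**Figure D3:**
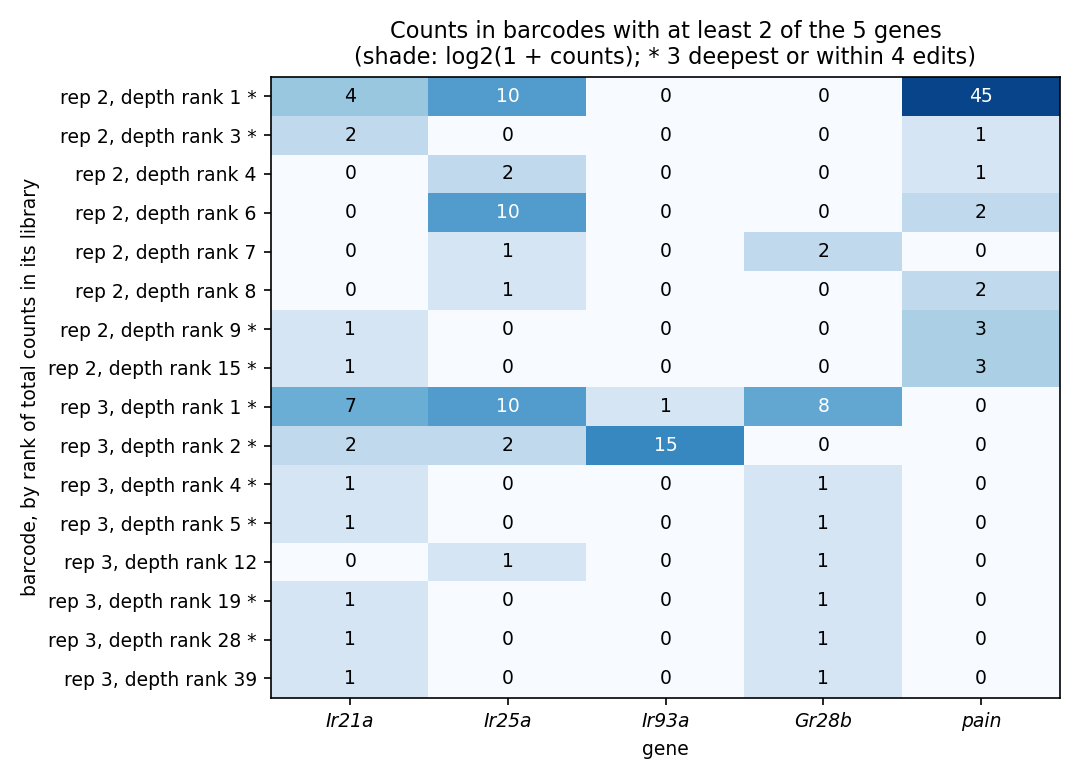
Counts of the 5 genes in each of the 16 kept barcodes with at least 2 of them, named by replicate and by rank of total counts; darker cells hold more counts, and an asterisk marks the 3 deepest barcodes of a library or those within 4 edits of them. Ir21a and Gr28b share 6 barcodes of replicate 3, and 45 counts of pain lie in the deepest barcode of replicate 2.

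Each barcode was also sorted by the marker lists, as neuron-leaning where it held more neuron than glia list counts and glia-leaning where it held fewer. Replicates 1, 2 and 3 had 5, 139 and 209 neuron-leaning and 34, 41 and 3 glia-leaning barcodes, and 22, 34 and 19 with a tie or no count of either list. In replicate 3, neuron-leaning barcodes held 96.9% of counts. They also held 21 of 22 counts of Ir21a, 33 of 34 of Ir25a, 22 of 25 of Ir93a and all 25 of Gr28b. With so few glia-leaning barcodes, that library could not contrast the classes. The remaining 3 counts of Ir93a lay in 2 barcodes with no neuron or glia list count, 1 of which, of rank 38, held 2 of them in 1029 counts.

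In replicate 2, where both classes were frequent, no difference of the ionotropic receptor genes between them was detectable. Ir25a stood at 67.5 CPM in neuron-leaning and 62.5 CPM in glia-leaning barcodes, a ratio of 0.926 for glia-leaning over neuron-leaning (interval 0.451 to 1.82). It was counted in 13 of 139 neuron-leaning (9.35%, median depth 571 counts) and 5 of 41 glia-leaning barcodes (12.2%, median depth 493 counts). For Ir21a the levels were 16.9 and 31.3 CPM, a ratio of 1.85 (interval 0.554 to 6.19). Both intervals included 1. Glia-leaning barcodes also held neuron list counts, such as 794 in the deepest, so the classes are not cell types, and the source of single counts in either class was not tested. Both counts of Gr28b in replicate 2 lay in 1 neuron-leaning barcode.

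The counts of pain in replicate 2 lay mostly in glia-leaning barcodes. These held 55 of 64 counts (85.9%, interval 75.0 to 93.4) with 34.2% of all counts, which put pain at 246 CPM (interval 185 to 320) against 19.3 CPM (interval 8.33 to 38.0) in neuron-leaning barcodes, a ratio of 12.7 (interval 6.03 to 31.0). Without the deepest barcode, which was glia-leaning with 1108 glia and 794 neuron list counts, 10 and 8 counts were left. The ratio was then 7.80 (interval 2.77 to 22.7). Among barcodes with at least 1000 genes, pain was counted in 5 of 6 glia-leaning (83.3%, interval 35.9 to 99.6, median 10855.5 counts) and 5 of 23 neuron-leaning ones (21.7%, interval 7.46 to 43.7, median 5763 counts).

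This contrast rested on the deepest set. Of the 5 glia-leaning barcodes with pain, of ranks 1, 8, 9, 15 and 24, all but rank 8 belonged to it, with 53 counts. Without the set, 2 counts were left in glia-leaning and 7 in neuron-leaning barcodes, or 44.7 and 25.1 CPM, a ratio of 1.78 whose interval (0.181 to 9.37) included 1. Glia-leaning barcodes then held 20.0% of the counts of pain and 13.2% of all counts.

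**Figure D4:**
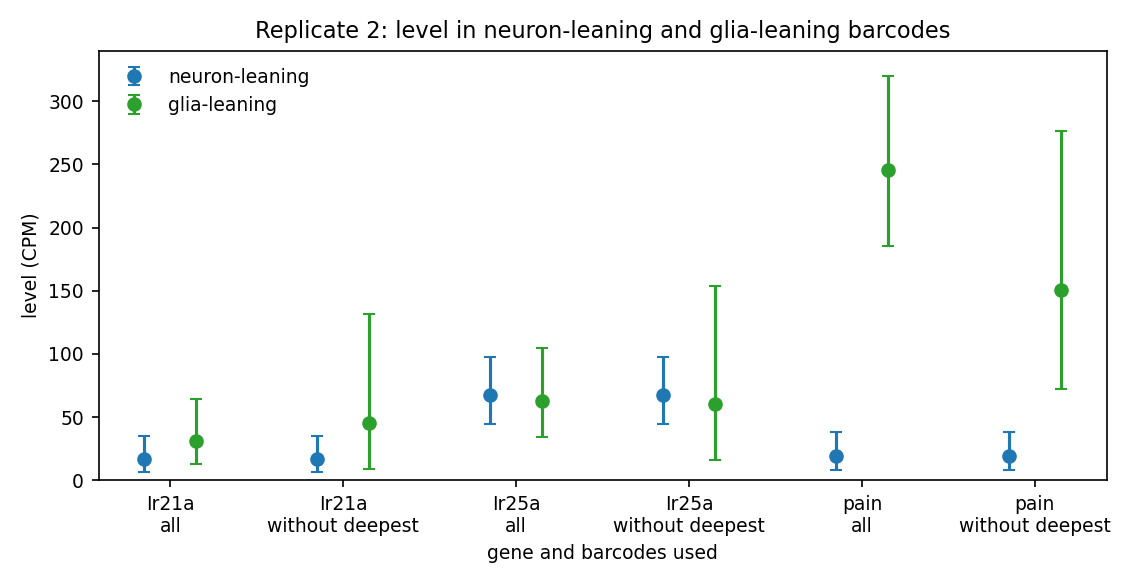
Level in CPM of Ir21a, Ir25a and pain in neuron-leaning and glia-leaning barcodes of replicate 2, over all kept barcodes and without the deepest one; bars are exact 95% Poisson intervals. Ir21a and Ir25a overlap between the classes, while pain stands at 246 against 19.3 CPM over all kept barcodes.

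The single count of pain in the kept barcodes of replicate 1 lay in a glia-leaning barcode of its deepest set, with 10 glia and 6 neuron list counts. In that library glia-leaning barcodes held 89.3% of counts. They also held epidermis genes, such as 155 of 163 counts of grh and 181 of 237 of Gasp. Glia-leaning barcodes of replicate 2 held 1 and 3 counts of these, so the class differed between the libraries.

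Read the other way, the summed deep barcodes of replicate 2 with pain had a higher glia list level than those without. This difference narrowed without the deepest barcode. The glia list stood at 4980 CPM over the 10 with pain and at 2295 CPM over the 19 without, and the neuron list at 6033 and 7650 CPM. Without the deepest barcode, the values with pain were 2999 CPM for glia and 6982 CPM for neuron genes, nearer to those without pain. The counting intervals of the summed glia list still did not overlap, at 2740 to 3277 CPM with pain and 2098 to 2505 CPM without. The median over single barcodes then turned, with 2124 CPM of the glia list in the 9 with pain and 2567 CPM in the 19 without. Deep barcodes with Ir25a had 4174 CPM of the glia list against 3076 CPM without, and 2328 CPM once the deepest was left out. For Ir21a the glia list stood at 5738 CPM with and 2415 CPM without, and at 3256 CPM with it once the deepest was left out.

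In replicate 3, barcodes of 200 to under 500 genes held 3144 CPM of the neuron list with Ir21a (5 barcodes) and 6685 CPM without (189 barcodes). With Ir25a the values were 6281 and 6610 CPM, with Gr28b 5427 and 6638 CPM, and with Ir93a (4 barcodes) 4168 and 6643 CPM. The summed level was thus lower with each gene, but the counting intervals overlapped for Ir25a, Gr28b and Ir93a. Only those of Ir21a did not, at 1437 to 5967 CPM with it, on 9 neuron list counts, and 6182 to 7219 CPM without. The median over single barcodes was higher with Ir25a (6667 CPM) than without (6173 CPM). Over all kept barcodes of replicate 3 the order of the sums was the reverse, at 15621 against 11316 CPM for Ir21a, 15070 against 11920 for Ir25a, 15447 against 11701 for Ir93a and 16756 against 10748 for Gr28b. Without the deepest barcode, the sum was still higher with Gr28b, at 13146 CPM. It was lower with each of the others, at 10083, 6870 and 7426 CPM for Ir21a, Ir25a and Ir93a. The medians over single barcodes then ran against the sums for Gr28b (6303 CPM with, 6477 CPM without) and Ir25a (6667 and 6352 CPM). For Ir21a and Ir93a the medians were lower with the gene, as the sums were. The rank 2 barcode, which gathered Ir93a, held 97 neuron and 10 glia list counts, or 4501 CPM of the neuron list, against 20089 CPM over the 8 deep barcodes without Ir25a.

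**Figure D5:**
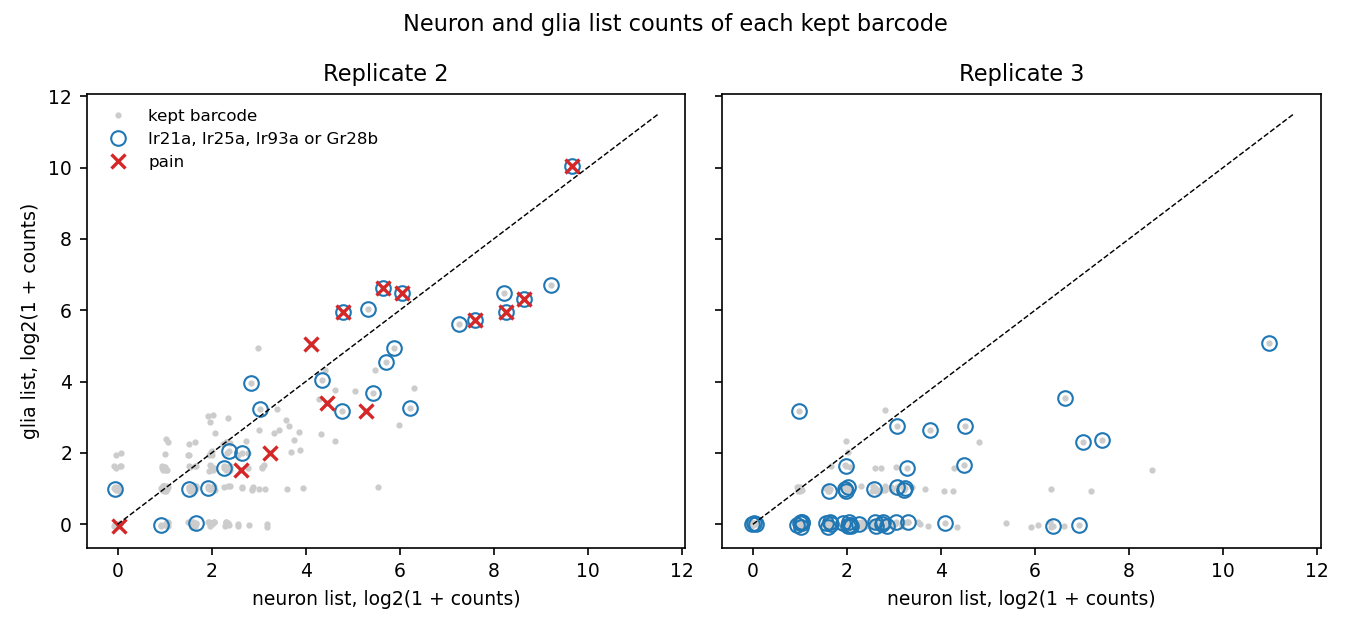
Neuron list counts (x) and glia list counts (y) of each kept barcode in replicates 2 and 3, both as log2(1 + counts) with points shifted slightly so that equal values can be seen; circles mark barcodes with Ir21a, Ir25a, Ir93a or Gr28b, crosses those with pain, and the dashed line marks equal counts. In replicate 2 some crosses lie above the line, while in replicate 3 nearly all circles lie below it.

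Replicates 1 and 2 had at least 5 barcodes of both classes and entered a second fit. Across them, edgeR's quasi-likelihood test called 0 of 3300 genes higher (0%) and 0 lower (0%) in neuron-leaning than in glia-leaning barcodes. At an unadjusted p under 0.05 it gave 26 higher (0.788%) and 15 lower (0.455%), and DESeq2 called 0 in either direction. The neuron and glia list genes, which define the classes, were left out of these counts. None of those tested passed, with a log2 fold change of 1.68 ± 0.80 for nrv3 and -2.06 ± 0.82 for Gs2 (SE, edgeR adjusted p 0.999 each). Ir25a, the only member that passed the count filter, had a log2 fold change of 0.26 ± 1.47 (SE, edgeR adjusted p 0.999). Without the filter, over 9137 genes, the value was -3.55 ± 1.94 for pain (SE, edgeR adjusted p 0.949) and -0.79 ± 1.81 for Ir21a. The contrast of pain within replicate 2 was thus not past the test once both libraries were the replicates. That fit did not call the genes that define its classes either, so its lack of calls says little about a member. Its glia-leaning class also differed between the libraries, holding epidermis genes in replicate 1.

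Other genes of temperature and taste sensing were listed by role. Of 12 other TRP channel genes, 7 were counted, and 2 reached 10 counts in a library. The mechanosensory channel gene nompC had 59 counts in replicate 3 (171 CPM, interval 130 to 220), all in neuron-leaning barcodes, and Trpm had 11 in replicate 2. TrpA1, the warmth-activated TRPA channel gene, was not listed in any of the 3 tables. Of 4 other gustatory receptor genes, the bitter receptor genes Gr66a and Gr33a had 50 (76.4 CPM) and 15 counts (22.9 CPM) in replicate 2, and Gr28a, the neighbour of Gr28b, had none. Of 4 other ionotropic receptor genes, the co-receptor gene Ir76b had 6 counts and the humidity receptor gene Ir40a 1, both in replicate 2. Of 3 brivido genes, tied to cold sensing in adult flies, brv2 had 2 counts in replicate 3. The other gustatory and ionotropic receptor genes of these lists that were counted were thus found in replicate 2 alone.

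Of 5 phospholipase, G protein and opsin genes, 4 were counted. Phospholipase C (norpA) and the Gq alpha subunit (Galphaq), which relay opsin signals in temperature choice of larvae, were counted in all libraries. For norpA the levels were 163, 199 and 69.4 CPM in replicates 1, 2 and 3. It was tested in both fits, with a log2 fold change of 1.42 ± 0.92 (SE, edgeR adjusted p 0.952) in deep against shallow barcodes and of 0.94 ± 1.12 (SE, edgeR adjusted p 0.999) in neuron-leaning against glia-leaning ones. In the latter the value was 0.62 ± 1.53 for Gr66a and 1.87 ± 1.41 for Galphaq (SE, edgeR adjusted p 0.999 each). None of the genes of these lists that were tested passed.

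The genes most like each member were taken by the Pearson correlation of log2(1 + counts per 10000), centred within libraries, over the 63 barcodes with at least 1000 genes and among 3932 genes. The points of a library share its suspension, and many share a barcode sequence up to a few edits, so these values are descriptions. For pain, counted in 11 of these barcodes, they were Drep-2 (r = 0.91), CG7974 (r = 0.85) and nuf (r = 0.83). Over the 24 deep barcodes outside the deepest set these were 0.82, 0.88 and 0.33. For Ir25a (14 barcodes) they were CG3645 (r = 0.66), CG17977 (r = 0.65) and CG16974 (r = 0.63), and outside the deepest set 0.56, 0.42 and 0.63. For Ir21a (10 barcodes) they were Fili (r = 0.59), alpha-Est7 (r = 0.56) and Ulp1 (r = 0.56), and outside the deepest set -0.08, 0.26 and 0.74. Ir21a and Ir25a, which work in 1 receptor, had r = -0.15 over the 63 barcodes and -0.25 outside the deepest set. Replicate 1, where neither gene was listed, gave 24 of the 63. The overlap of these genes in deep barcodes ran in opposite directions in replicates 2 and 3. Ir93a and Gr28b, counted in 3 and 4 deep barcodes, were below the minimum of 10.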

How the data were processed

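Single-cell RNA-seq libraries (DisCo) of 3 replicates of 1 group were measured. The authors' deposited tables hold whole-number counts per gene and 12-base barcode, not normalized, judging from the values. STAR 2.7.0 and Seurat 3.1.2 are named per the submitters' processing notes. The genome build, the collapsing of copies to molecules, the strand setting and any removal of doublets are not given in the sources used here, so no coordinates are printed and values are called counts. Tables list only genes with at least 1 count, and a gene not listed was taken as 0. Depth was 508018, 689416 and 369432 counts in replicates 1, 2 and 3.

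Barcodes with at least 200 genes were kept. Exact 95% intervals (scipy 1.17.1) cover counting error only, and where nothing was counted the limit is 3 counts. Class sums per library were fitted by quasi-likelihood (glmQLFit, glmQLFTest) in edgeR 4.0.16 (R 4.3.3) after filterByExpr and TMM scaling, the library being a block. DESeq2 1.42.0 was an alternative, and calls were made at an adjusted p of 0.05. The fit was first tested on simulated counts with no differences between libraries other than depth. That test does not give its power in these data. A library entered a fit with at least 5 barcodes in both classes. The replicate block is by construction, as both sums of a library share a suspension. Other genes were named if on a list with at least 10 counts in a library, or as the 3 most correlated with a member counted in at least 10 deep barcodes. The genes called lower by depth and the barcodes given by rank were singled out after their values were seen. Gene names, arms and overlaps come from the Ensembl annotation (BDGP6). The 5 genes and all lists were chosen with earlier results of these data known. The alternatives changed the normalization, filters, classes, thinning and libraries, and leaving out the deepest set was added after seeing the data.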

Additional observations from a re-analysis of the deposited data

Results flagged for a closer look

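Counts of 2 members appeared in barcodes with fewer than 200 genes, which the comparisons leave out, above the limit of 3 counts. In replicate 2, pain had 5 counts there, 1 each in 5 of 304 barcodes (1.64%, interval 0.536 to 3.8), or 141 CPM (interval 45.9 to 330) against 97.9 CPM in the kept barcodes. In replicate 3, Gr28b had 5 counts in 3 of 325 barcodes (0.923%), or 210 CPM (interval 68.2 to 490) against 72.3 CPM in the kept barcodes. The intervals of both genes overlap those of the kept barcodes. Within that limit, pain of replicate 1 had 2 counts in barcodes with fewer than 200 genes and 1 in the kept ones.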

How the results depend on the processing

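The number of genes lower in deep than in shallow barcodes was 3 with edgeR, 7 with DESeq2, 0 with no replicate block and 0 to 24 when a replicate was left out (24 without replicate 1, 1 without replicate 2 and 0 without replicate 3). The number higher was 0, and 0 to 2 when a replicate was left out (2 without replicate 1). Barcodes with at least 2 members fell from 16 to 4 when at least 2 counts of each were required, to 6 without the deepest set (chosen after seeing the data), and ranged from 8 to 16 when a replicate was left out. The share of counts of pain in glia-leaning barcodes fell from 85.9% to 52.6% without the deepest barcode and to 20.0% without the deepest set, both chosen after seeing the data. The cause was not tested, beyond the fewer barcodes and libraries each alternative uses. The log2 fold change of Ir25a in neuron-leaning against glia-leaning barcodes ranged from 0.19 to 2.03, none past the threshold, and was 0.53 with no replicate block (edgeR adjusted p 1.00). No call of a member changed. Mean levels over libraries depended on single libraries. That of pain went from 33.3 to 1.01 CPM without replicate 2 and to 13.6 CPM without the deepest barcodes, that of Ir93a from 24.1 to 0 and that of Gr28b from 25.1 to 1.53 CPM without replicate 3. Without a replicate, the mean of Ir21a ranged from 10.7 to 42.5 CPM and that of Ir25a from 32.1 to 81.3 CPM. The median log2 fold change of all genes went from 0.26 (edgeR) to 0.02 (DESeq2) by depth, and from 0.08 to 0.21 by marker class. Scaling and model changed together between them. Leaving out a replicate of the marker fit, and requiring at least 2 times the counts of the other list, left 1 library, so these were not run. No member had more than 64 counts in the kept barcodes of a library, which leaves wide intervals on every ratio of a member.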
